A study of Mus musculus with 6 samples.

Results

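Mitochondrial RNA carried 277 of the 3895 peaks listed for Hnrnpa2b1 in C2C12 cells. These peaks were taken by position alone, as every listed peak on the mitochondrial chromosome (chrM) on either strand, and each was assigned to a gene by its midpoint and strand. The lists came from eCLIP, an enhanced form of UV crosslinking and immunoprecipitation: proteins are tied to RNA by UV light, the protein of interest is pulled down, and the RNA fragments attached to it are sequenced. C2C12 is a mouse myoblast line that fuses into myotubes when serum is reduced. The 6 samples of the series were 2 immunoprecipitation (IP) libraries from undifferentiated cells in medium with 20% FBS (C2C12 A and B, called myoblasts below), 2 from cells held, per the labels, for 8 to 10 days in medium with 5% horse serum and ITS (differentiated C2C12 A and B, called differentiated cells below), and 1 input per state. The labels name no engineered allele and no further agent, and both states came from the same line. The study describes its eCLIP replicates as biologically independent samples, while the labels do not say whether A and B were separate cultures. The lists hold no read counts, so the depth of each library is unknown. Muscle markers could not be checked, because genes of the other chromosomes were not named here.

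The labels describe isolation of nuclei before immunoprecipitation, whereas the study's methods describe lysis of whole cells, and they also differ in the length of differentiation. They differ on the inputs as well: the labels list 1 for each state and the methods describe an input for every replicate. Whether A and B were set against the same input is therefore unknown, and with it how far the SD of an enrichment includes the spread of the inputs. The amount of mitochondrial RNA in each lysate, fewer or more mitochondria per cell, and binding per RNA molecule cannot be told apart in peak lists. Each fold enrichment given here is the authors' ratio of IP to size-matched input reads within a peak, on the log2 scale, and is used as a description. All listed peaks were used, down to a −log10 p of 5. The study's methods call a peak significant only beyond a Bonferroni-corrected −log10 p of 8.

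The mitochondrial genome is read from both strands into long precursor RNAs. tRNAs lie between the other genes and are cut out, which releases the mRNAs and the small and large rRNA of the mitochondrial ribosome, mt-Rnr1 and mt-Rnr2. The mRNAs encode subunits of respiratory complexes I, III, IV and V. Hnrnpa2b1 is known mainly as a nuclear RNA-binding protein of the hnRNP family, with a preference for RNA that holds UAG.

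Stretches in 4 genes were covered by peaks in all 4 libraries, and their sequences are shown because they are the only mitochondrial RNA that every list shared. They lie in mt-Rnr2 (chrM:1322-1367, plus strand), mt-Nd1 (chrM:3038-3108, plus strand), mt-Co1 (chrM:6200-6248, plus strand) and mt-Nd6 (chrM:13867-13944, minus strand). The first is in an rRNA and the other stretches are in coding sequence; mitochondrial genes have no introns. Capitals mark the nucleotides covered in all 4 libraries, with 10 nt in lower case to either side, 5′ to 3′ on the gene's strand.
mt-Rnr2: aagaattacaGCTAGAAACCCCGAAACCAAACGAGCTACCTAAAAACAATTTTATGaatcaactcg
mt-Nd1: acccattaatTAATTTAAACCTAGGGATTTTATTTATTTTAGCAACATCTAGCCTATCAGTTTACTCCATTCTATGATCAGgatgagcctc
mt-Co1: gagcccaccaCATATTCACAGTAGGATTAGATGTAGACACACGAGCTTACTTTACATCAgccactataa
mt-Nd6: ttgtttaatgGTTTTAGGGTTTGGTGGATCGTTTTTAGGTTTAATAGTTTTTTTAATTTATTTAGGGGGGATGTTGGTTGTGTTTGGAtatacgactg
The capitals hold 1 UAG (TAG in DNA letters) in mt-Rnr2, 3 in mt-Nd1, 3 in mt-Co1 and 4 in mt-Nd6.

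Further stretches were covered in both differentiated libraries and had no peak in myoblasts. Those shown are the ones with the highest enrichment in an rRNA and in a protein-coding gene, and those of all 5 tRNA genes with such a stretch. They lie in the rRNA mt-Rnr1 (chrM:344-402, plus strand), in mt-Nd6 (chrM:13749-13795, minus strand, again with 10 nt to either side), and in the tRNA genes mt-Ts2 (chrM:11613-11671, plus), mt-Tp (chrM:15356-15422, minus), mt-Tl1 (chrM:2676-2750, plus), mt-Tm (chrM:3845-3913, plus) and mt-Tv (chrM:1025-1093, plus). The tRNA genes are printed whole, and capitals mark the nucleotides covered in both differentiated libraries.
mt-Rnr1: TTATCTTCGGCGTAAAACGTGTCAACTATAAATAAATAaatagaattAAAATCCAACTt
mt-Nd6: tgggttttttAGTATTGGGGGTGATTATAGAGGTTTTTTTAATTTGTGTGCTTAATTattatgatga
mt-Ts2: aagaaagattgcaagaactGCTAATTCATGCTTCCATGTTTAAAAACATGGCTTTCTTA
mt-Tp: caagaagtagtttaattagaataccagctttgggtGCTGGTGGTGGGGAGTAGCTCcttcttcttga
mt-Tl1: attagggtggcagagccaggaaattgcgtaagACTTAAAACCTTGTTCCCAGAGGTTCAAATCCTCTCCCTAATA
mt-Tm: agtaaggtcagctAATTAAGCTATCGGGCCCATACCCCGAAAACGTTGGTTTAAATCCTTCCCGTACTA
mt-Tv: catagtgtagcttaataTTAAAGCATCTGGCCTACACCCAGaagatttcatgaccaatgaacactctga
The capitals hold 1 UAG in mt-Nd6, 1 in mt-Tp and none in mt-Rnr1, mt-Ts2, mt-Tl1, mt-Tm and mt-Tv. In mt-Tl1 the stretch covered in both differentiated libraries ran past the printed gene to chrM:2751, and that base completes 1 UAG. Coordinates are those of the lists, counted from 1, in mm9. Sequences are from the RefSeq mitochondrial record of GRCm38, which is taken to be the record that mm9 also uses; no mm9 genome was used to check this. In the lists, no mitochondrial peak ended beyond the 16299 nt of that record.

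Mitochondrial peaks were more numerous after differentiation, and by a larger ratio than the peaks of the other chromosomes. C2C12 A had 20 mitochondrial peaks, C2C12 B had 14, differentiated C2C12 A had 138 and differentiated C2C12 B had 105. The means were 17 ± 4.24 in myoblasts and 121.5 ± 23.3 in differentiated cells (SD, n = 2 each), a ratio of 7.15, and the groups did not overlap. On all other chromosomes the ratio of mean peak numbers was 2.14. The share of a list that was mitochondrial was 3.37% (95% Wilson interval 2.19 to 5.14) and 2.37% (1.42 to 3.94) in myoblasts, against 9.21% (7.85 to 10.8) and 8.67% (7.21 to 10.4) in differentiated cells. These intervals, and those below, treat peaks as independent and cover counting error at most. Many peaks lay end to end, so the intervals are too narrow even for that. The difference of 6.07 percentage points in the mean share exceeded the SDs, 0.706 and 0.379. Its exact two-sided permutation p was 0.333, which is the smallest that 2 libraries against 2 can give, so no comparison of the states here could pass 0.05.

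The size of this difference depended on what was counted. Many mitochondrial peaks lay end to end, with a median width of 9 and 15.5 nt in myoblasts and of 8 and 11 nt in differentiated cells. After touching peaks were joined, 7 and 5 blocks were left in myoblasts and 31 and 25 in differentiated cells, a ratio of 4.67. Peaks covered 436 and 408 mitochondrial nt in myoblasts and 1704 and 1671 nt in differentiated cells. As a share of all nucleotides covered by a list, mitochondrial RNA made up 2.23% and 1.97% in myoblasts and 2.93% and 2.49% in differentiated cells. Those values did not overlap either, but the ratio of their means was only 1.29 (exact permutation p = 0.333). With the rRNA genes left out, a choice made after the data were seen, the mean share of the list was 1.37% in myoblasts and 2.38% in differentiated cells.

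rRNA held most of the peaks that separated the states. By midpoint, 12 and 6 peaks lay in the rRNA genes in myoblasts and 96 and 85 in differentiated cells. tRNA genes held 0 and 1 peaks in myoblasts and 16 and 8 in differentiated cells, and protein-coding genes held 8 and 7 against 26 and 12. Neither antisense RNA nor the control region held a peak midpoint in any library. The peak caller searches within annotated genes, so this 0 says nothing about RNA outside them.

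In covered length, too, the ratio between the states was higher for rRNA than for protein-coding genes. rRNA genes were covered over 88 and 51 nt in myoblasts and 762 and 981 nt in differentiated cells, a ratio of means of 12.5. tRNA genes were covered over 0 and 16 nt in myoblasts and 328 and 185 nt in differentiated cells. Protein-coding genes were covered over 348 and 341 nt in myoblasts and 613 and 505 nt in differentiated cells, a ratio of 1.62. In each of these classes both differentiated libraries lay above both myoblast libraries, with an exact permutation p of 0.333, or 0.556 after Benjamini-Hochberg adjustment over 5 classes.

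**Figure D1:**
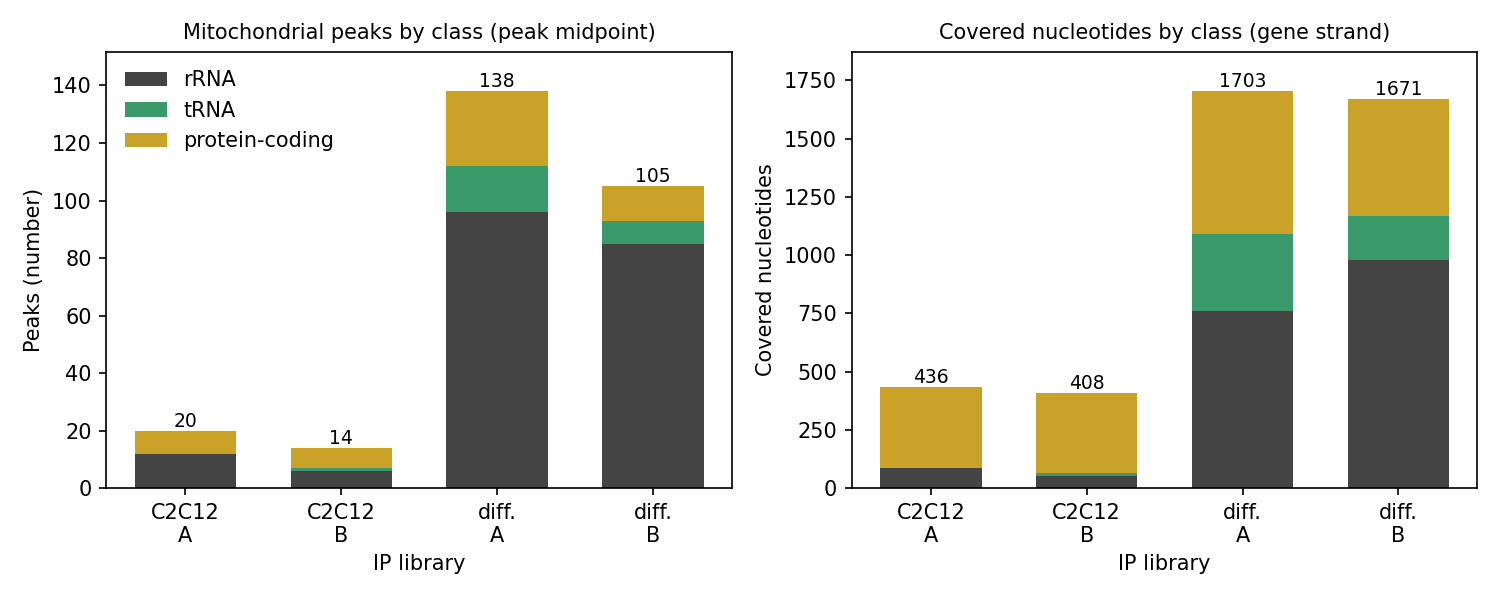
Mitochondrial peaks (left, number, by midpoint) and covered nucleotides (right, on the gene's strand) in each of the 4 IP libraries, stacked by gene class, with the total above each bar. Differentiated libraries A and B hold 138 and 105 peaks against 20 and 14 in myoblasts, and most of the added height is rRNA.

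By strand, the plus strand was covered over 284 and 265 nt in myoblasts and 1234 and 1427 nt in differentiated cells (ratio of means 4.85). The minus strand, whose peaks lay in mt-Nd6 and the tRNA genes mt-Tp and mt-Tq, was covered over 152 and 143 nt in myoblasts and 470 and 244 nt in differentiated cells (ratio 2.42). Here the difference of 209.5 nt compared with an SD of 160 nt between the differentiated libraries.

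Of the 37 mitochondrial genes, 5 and 5 held a peak midpoint in myoblasts and 13 and 11 in differentiated cells. The covered share of the gene was higher in both differentiated libraries than in both myoblast libraries for 11 genes (29.7% of the 37), and the reverse held for 1 gene, mt-Co1 (2.7%). The 11 included mt-Nd2 and mt-Tl2, which were reached only by the last nucleotides of a peak on the neighbouring tRNA. No nucleotide was covered in any library in 21 genes, of which 14 were tRNA and 7 protein-coding genes. Those genes could not differ either way. The share of genes with higher coverage was not computed for the other chromosomes, where the ratio of mean peak numbers was 2.14.

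**Figure D2:**
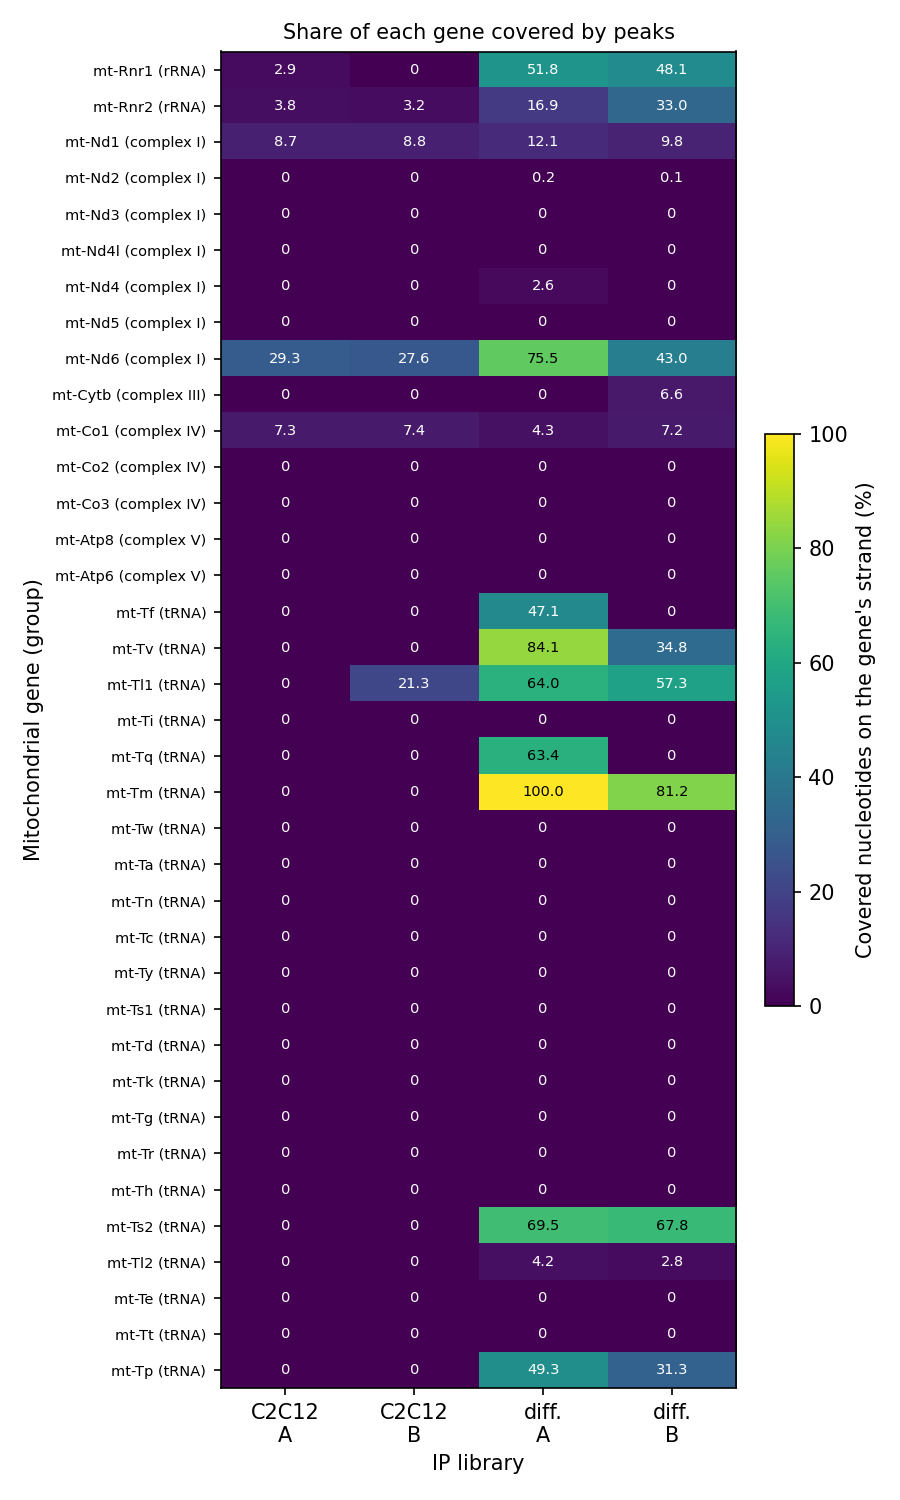
Percentage of each mitochondrial gene covered by peaks on its own strand (colour and printed value) in the 4 IP libraries, with genes grouped by rRNA, respiratory complex and tRNA. mt-Rnr1 reads 2.9 and 0 in myoblasts and 51.8 and 48.1 in differentiated cells, while mt-Co1 stays between 4.3 and 7.4 and most genes read 0 in all libraries.

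mt-Rnr1, the rRNA of the small ribosomal subunit, had the widest gap in coverage between states among the rRNA and protein-coding genes when all listed peaks were used. When log2 fold enrichment had to reach 2 it had no coverage in either state, while mt-Nd6 kept a difference of 15.2 percentage points. Peaks covered 2.93% of it in C2C12 A, none of it in C2C12 B, 51.8% in differentiated C2C12 A and 48.1% in differentiated C2C12 B. The C2C12 A coverage was 28 nt with log2 fold enrichment of at most 0.34 and −log10 p of at most 7.72. The differentiated peaks reached 1.68 and 1.48. Over all libraries the covered nucleotides ended at nt 854 of 955, and the 101 nt at the 3′ end had no peak.

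mt-Rnr2, the rRNA of the large subunit, had peaks in every library. It was covered over 3.79% and 3.22% in myoblasts and 16.9% and 33.0% in differentiated cells. In myoblasts most of this, 46 of 60 nt in C2C12 A and of 51 nt in C2C12 B, was the stretch at nt 229 to 274 printed above, and that stretch was also where enrichment was highest in the differentiated libraries. The highest log2 fold enrichment in the gene was 1.27 and 0.98 in myoblasts and 2.41 and 2.23 in differentiated cells. Beyond nt 887 of 1582 no library had a peak, so the 695 nt at the 3′ end were bare in all 4 lists.

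**Figure D3:**
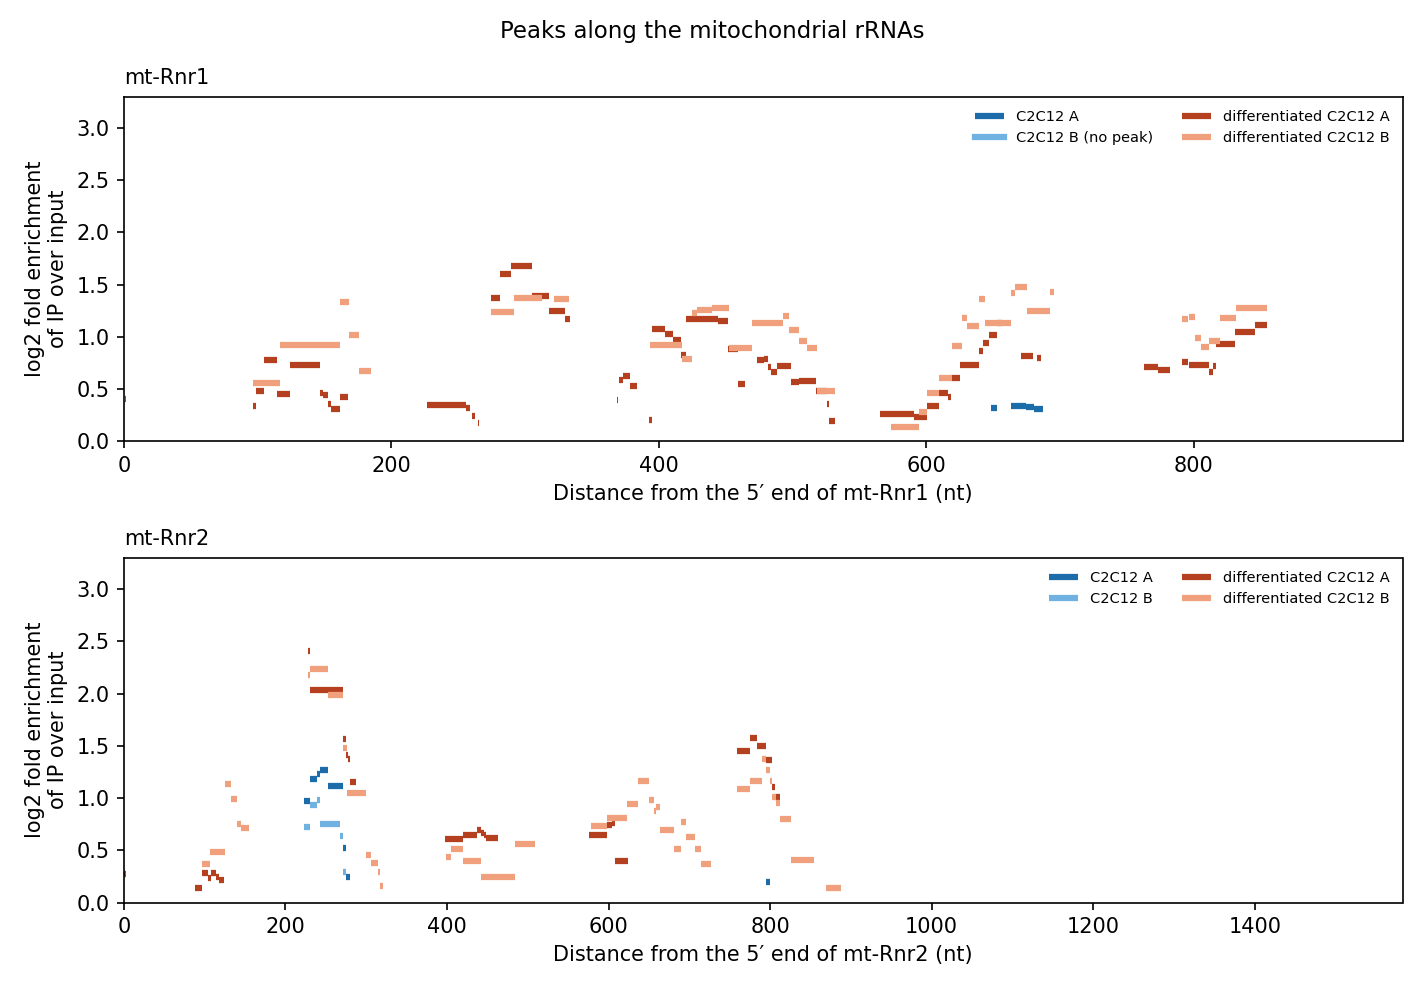
log2 fold enrichment of IP over input (vertical axis) of each peak along mt-Rnr1 and mt-Rnr2 (horizontal axis, nt from the gene's 5′ end), with 1 colour for each library. In mt-Rnr2 all 4 libraries share a peak cluster at nt 229 to 274 and none has a peak after nt 887; in mt-Rnr1 nearly all peaks are from the 2 differentiated libraries.

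Among protein-coding genes, 3 had peaks in all 4 libraries, namely mt-Nd6 and mt-Nd1, which encode complex I subunits, and mt-Co1, which encodes the catalytic subunit of complex IV. mt-Nd6 is the only protein-coding gene on the minus strand. It was covered over 29.3% and 27.6% of its length in myoblasts, 75.5% in differentiated C2C12 A and 43.0% in differentiated C2C12 B. The myoblast peaks lay between nt 92 and 243 of the gene. In differentiated C2C12 A touching peaks covered nt 39 to 430 without a break. In B peaks lay from nt 127 to 204 and, after a gap, from nt 276 to 424 with short breaks. No myoblast peak lay past nt 243. The highest log2 fold enrichment past it, 2.66 in A and 2.62 in B, was the highest of any protein-coding gene. The differentiated peaks past nt 243 hold the GU-rich minus-strand sequence printed above.

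mt-Nd1 was covered over 8.67% and 8.78% of its length in myoblasts and 12.1% and 9.82% in differentiated cells, all of it in the first 377 nt of 957. mt-Co1 was covered over 7.31% and 7.38% in myoblasts and 4.34% and 7.18% in differentiated cells. The difference for mt-Co1, -1.59 percentage points, was smaller than the gap between the differentiated replicates, and it turned to 0.194 points once −log10 p had to reach 8. mt-Nd4 (2.61% in differentiated A) and mt-Cytb (6.64% in differentiated B) each had a single peak in a single library, with −log10 p of 5.33 and 6.87. The genes of complex V, mt-Atp6 and mt-Atp8, had no covered nucleotide in any library.

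**Figure D4:**
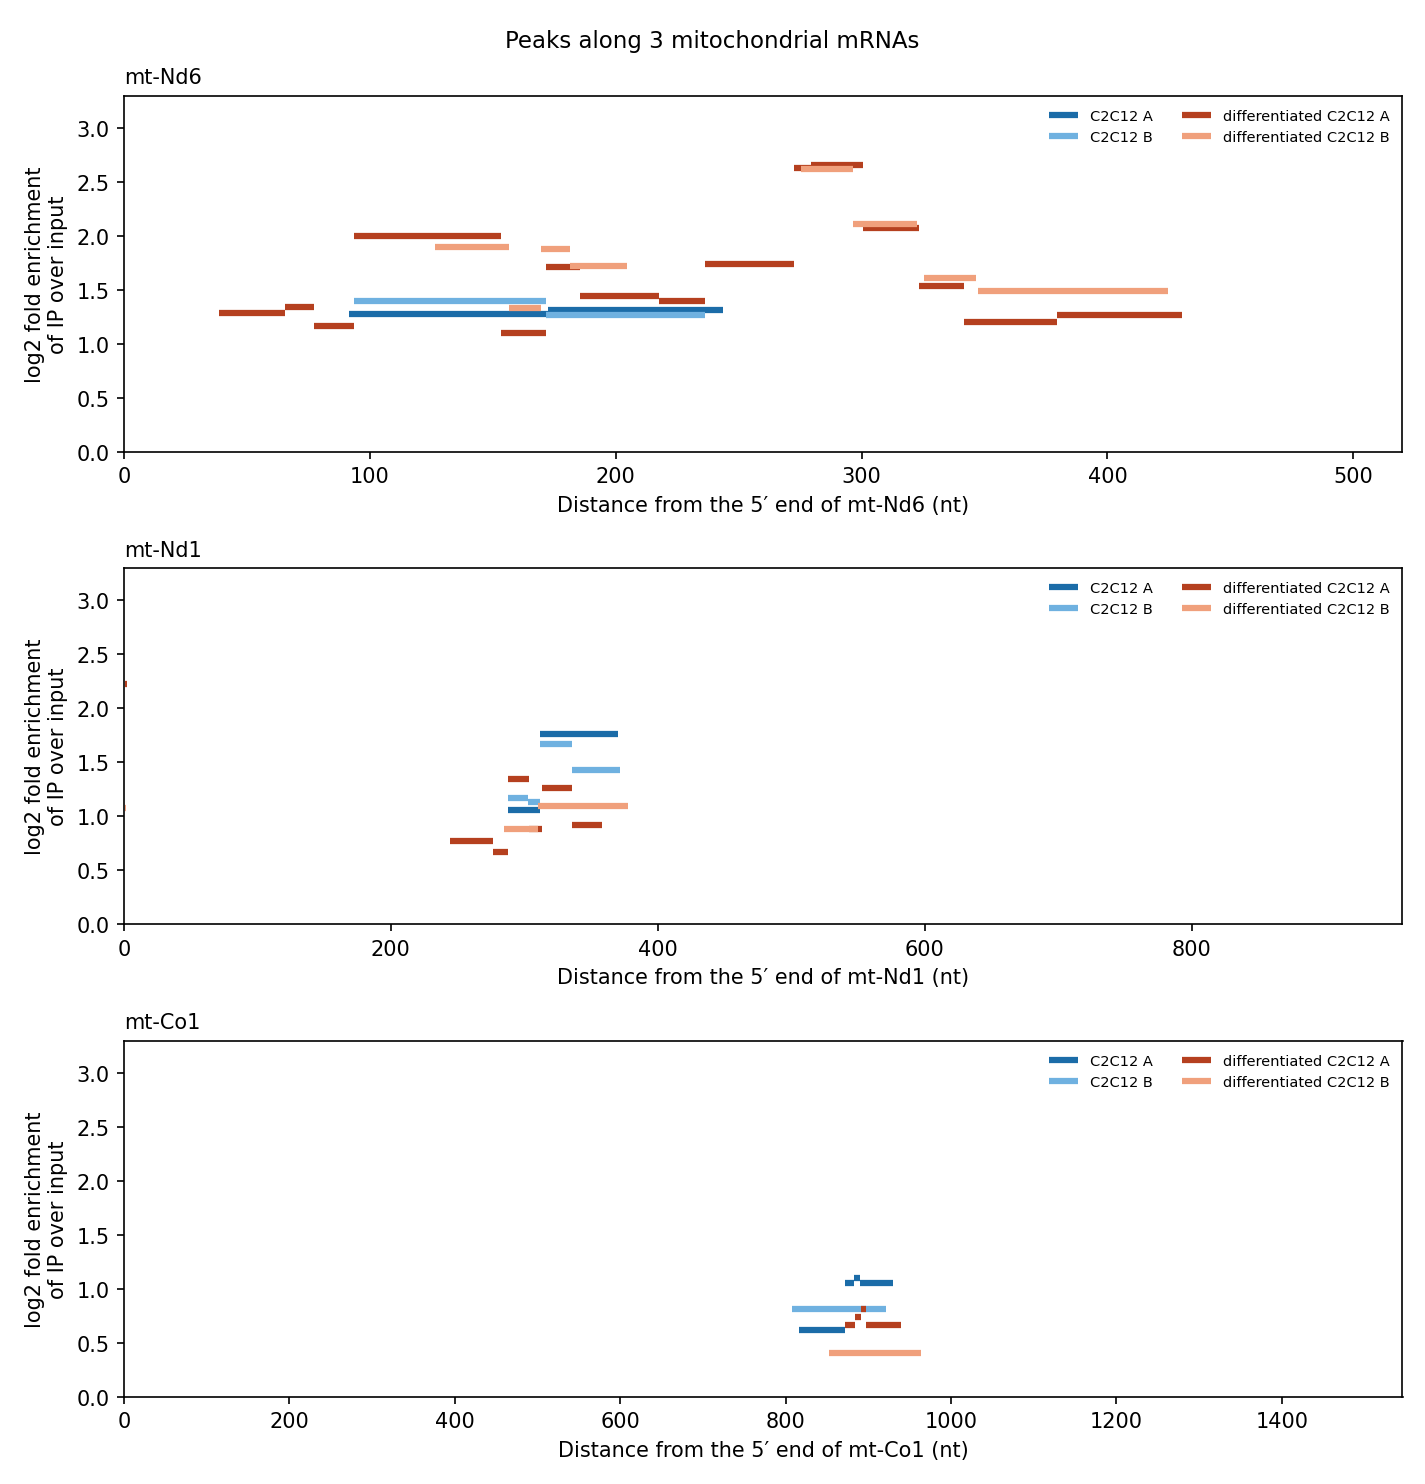
log2 fold enrichment of IP over input (vertical axis) of each peak along mt-Nd6, mt-Nd1 and mt-Co1 (horizontal axis, nt from the gene's 5′ end), with 1 colour for each library. Peaks near nt 276 to 322 of mt-Nd6 appear in both differentiated libraries at up to 2.66 and 2.62 and in neither myoblast library. In mt-Nd1 and mt-Co1 peaks of all 4 libraries fall on the same stretch.

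Enrichment was then compared over the same nucleotides, as the length-weighted mean log2 fold enrichment in each stretch covered in all 4 libraries. In mt-Rnr2 it was 1.13 and 0.76 in myoblasts and 2.02 and 2.08 in differentiated cells. In mt-Nd6 it was 1.29 and 1.34 in myoblasts and 1.60 and 1.75 in differentiated cells. In both genes the differentiated libraries were higher, by 1.11 and 0.36 in the mean. mt-Nd1 went the other way, with 1.52 and 1.42 in myoblasts and 1.12 and 1.02 in differentiated cells. So did mt-Co1, with 1.06 and 0.81 in myoblasts and 0.69 and 0.41 in differentiated cells. The differences were -0.40 and -0.39, the groups did not overlap in any of the 4 stretches, and each difference exceeded both SDs. How often shared stretches of the other chromosomes separated in this way was not computed, so this cannot be called a mitochondrial trait. The exact permutation p was 0.333 in each, and also after adjustment over the 4 stretches.

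tRNA peaks were nearly all from differentiated cells. Peaks lay on 7 of the 22 tRNAs, and 5 of these had a peak in both differentiated libraries. mt-Ts2, a serine tRNA, was covered over 69.5% and 67.8% of its length in differentiated cells with log2 fold enrichment of up to 3.14 in A, the highest mitochondrial value of that library, and 2.28 in B. Without peaks that touch a segment with a near-identical nuclear copy, described below, its mean coverage in differentiated cells was 14.4%. mt-Tp, the proline tRNA on the minus strand, was covered over 49.3% and 31.3%, with enrichment of 2.42 and 2.03. mt-Tm, the methionine tRNA, was covered over 100% and 81.2%, with enrichment of up to 1.66 and 1.14. None of these had a peak in myoblasts.

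mt-Tl1, a leucine tRNA next to mt-Rnr2, was the only tRNA with a peak in myoblasts. The C2C12 B peak covered nt 7 to 22 of the tRNA, whereas the differentiated peaks began at nt 28 and 33 and ran to its 3′ end, so that the peaks of the states did not overlap. Its log2 fold enrichment was 1.69 in C2C12 B, and up to 2.23 and 1.08 in differentiated cells. mt-Tv, the valine tRNA between the rRNA genes, was covered over 84.1% and 34.8% in differentiated cells at low enrichment, 0.28 and 0.92. The −log10 p of these mt-Tv peaks was 5.50 in A and 9.20 in B. With −log10 p of at least 8 its mean coverage in differentiated cells was 17.4%, against 59.4% with all listed peaks. mt-Tf (47.1%) and mt-Tq (63.4%), the phenylalanine and glutamine tRNAs, had peaks in differentiated C2C12 A alone. Those of mt-Tf had −log10 p of at most 7.87, and those of mt-Tq reached 30.8.

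The tRNA peaks favoured the 3′ side of the gene. Over the tRNAs with a peak, the 3′ side was covered over 91.7% in differentiated C2C12 A and 76.2% in B, and the 5′ side over 44.1% and 31.7%. In 9 of 13 pairs of a tRNA and a library the peaks ended within 2 nt of the annotated 3′ end. In differentiated C2C12 A the overshoot was 2 nt for mt-Tf, mt-Tl1, mt-Tm, mt-Ts2 and mt-Tv, and in B it was 1 nt for mt-Tl1, mt-Tm and mt-Ts2. This is seen in the printed genes, where the capitals of mt-Ts2, mt-Tl1 and mt-Tm run to the last base.

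**Figure D5:**
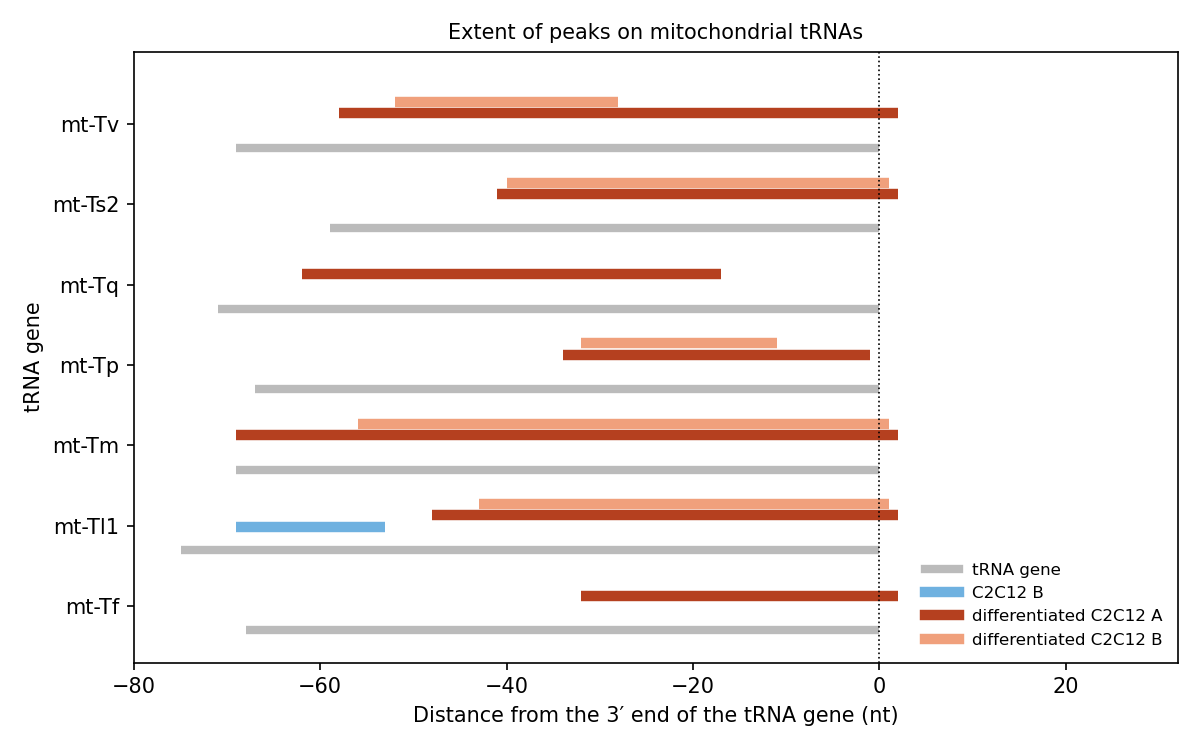
Extent of the peaks on each mitochondrial tRNA with a peak (coloured bars, by library) beside the tRNA gene itself (grey), against the distance in nt from the gene's 3′ end, which is the dotted line at 0. Most peaks end within 2 nt of the line, and the only myoblast peak, on mt-Tl1, lies near the 5′ end.

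Touching or overlapping peaks of all 4 lists were joined into regions, which gave 31 mitochondrial regions of 1015 in all. A peak in both differentiated libraries and none in myoblasts was seen in 13 mitochondrial regions (41.9%), against 19.8% of all regions. Both replicates of both states had a peak in 4 mitochondrial regions (12.9%, against 7.59% of all regions). A peak in both myoblast libraries and none in differentiated cells was seen in 0 mitochondrial regions, against 6.9% of all regions. Without the rRNA genes, 5 regions had a peak in both differentiated libraries and in no myoblast library, all of them in tRNA genes. No share over all regions was computed for that choice, so this count has no background to be set against. The other 14 regions had a peak in 1 library or in another combination of libraries. Most of the 13 regions lay in the rRNA genes, some of them close together, such as chrM:861-864 and chrM:866-923. Merging regions up to 100 nt apart left 3 mitochondrial regions in differentiated cells alone and 4 of both states. The shares over all regions were not computed for that rule, so the contrast of 41.9% and 19.8% holds only for regions joined where they touch.

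The 4 regions of both states were those of mt-Rnr2 (chrM:1317-1413), mt-Nd1 (chrM:2995-3127), mt-Nd6 (chrM:13641-14032) and mt-Co1 (chrM:6135-6290). The differentiated-only regions that ranked highest by −log10 p were in mt-Tp (chrM:15357-15389), mt-Tl1 (chrM:2703-2752) and 3 places in mt-Rnr1 (chrM:344-402, chrM:462-600 and chrM:866-923). The remaining 8 lay in mt-Rnr1 (2 regions), mt-Rnr2 (3 regions), mt-Tm, mt-Ts2 and mt-Tv.

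Nearly all myoblast mitochondrial peaks overlapped a peak of differentiated cells. This share was not computed for the other chromosomes, so it cannot be called a mitochondrial trait. The differentiated lists were also longer, with 1499 and 1211 peaks in all against 594 and 591 in myoblasts. Of the myoblast peaks, 19 of 20 and 13 of 14 overlapped a peak of differentiated C2C12 A, and 20 of 20 and 13 of 14 overlapped one of differentiated C2C12 B. In the other direction 17.4% and 11.6% of the 138 peaks of differentiated A, and 16.2% and 10.5% of the 105 peaks of differentiated B, overlapped a peak of C2C12 A and C2C12 B. In nucleotides, 244 nt were covered in all 4 libraries, which was 63.9% of the 382 nt common to both myoblast libraries and 20.2% of the 1208 nt common to both differentiated libraries.

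Counted as listed peaks, replicates shared mitochondrial peaks to a like degree in each state. In myoblasts, 27 of 34 peaks (79.4%, 95% Wilson interval 63.2 to 89.7) overlapped a peak of the other replicate, and in differentiated cells 192 of 243 did so (79.0%, 73.5 to 83.7). On the other chromosomes the shares of listed peaks were 88.1% and 68.8%. After touching peaks were joined, the mitochondrial shares were further apart, at 66.7% in myoblasts and 80.4% in differentiated cells. Replicates rarely gave the same peak ends: 23.5% of the myoblast and 2.47% of the differentiated mitochondrial peaks had an identical start and end in the other replicate. No pair of peaks in 2 libraries had the same ends and the same enrichment.

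Mitochondrial peaks had a lower fold enrichment than the other peaks but more often a very high −log10 p. Their median log2 fold enrichment was 1.05 and 1.06 in myoblasts and 0.80 and 0.99 in differentiated cells. On the other chromosomes it was 1.81 and 2.06 in myoblasts and 1.96 and 2.30 in differentiated cells, so the mitochondrial median was lower in 4 of 4 libraries. A log2 fold enrichment under 1 was listed for 9 of 20 and 7 of 14 mitochondrial peaks in myoblasts and for 80 of 138 and 53 of 105 in differentiated cells. On the other chromosomes 19.5% and 16.6% of the peaks in myoblasts and 9.85% and 7.78% in differentiated cells were under 1. The share at the largest listed −log10 p, 400, was 25.0% and 28.6% in myoblasts and 44.2% and 61.9% in differentiated cells, against 12.2%, 12.8%, 36.2% and 34.3% of the peaks on other chromosomes.

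Peaks at 400 were mostly rRNA peaks, which also had the lowest median enrichment of the classes. In differentiated cells the median log2 fold enrichment of rRNA peaks was 0.70 and 0.95, with 58 of 96 and 65 of 85 at 400, while protein-coding peaks had medians of 1.26 and 1.55 with none at 400. tRNA peaks had medians of 1.65 and 1.11. A log2 fold enrichment of at least 2 was reached by 0 mitochondrial peaks in either myoblast library and by 13 and 7 in differentiated cells. In differentiated cells these peaks lay in 5 genes per library on average, and 34 nt of their mean covered length was rRNA.

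UAG was more frequent in covered than in uncovered nucleotides of the protein-coding genes. Each occurrence on the gene's strand was counted once, at its base with the lowest coordinate, and is given per 100 nt. In C2C12 A and B there were 4.02 and 4.40 UAG in covered and 1.67 and 1.66 in uncovered nucleotides. In differentiated C2C12 A and B there were 2.94 and 2.77 in covered and 1.68 and 1.70 in uncovered nucleotides. Of the 613 and 505 nt covered in these 2 libraries, 392 and 223 nt lay in mt-Nd6, so base composition differed between covered and uncovered RNA. These values share the same few stretches of RNA and are a description, with no test. In the rRNA genes covered and uncovered nucleotides were closer, at 2.27 and 1.96 in C2C12 A, 1.96 and 1.97 in C2C12 B, 2.10 and 1.92 in differentiated A, and 2.45 and 1.67 in differentiated B. In the tRNA genes of the differentiated libraries UAG was less frequent in covered nucleotides, at 1.83 against 3.67 and 1.08 against 3.57.

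UAG was denser still in the protein-coding stretches that all 4 libraries covered. Over mt-Nd1, mt-Co1 and mt-Nd6 together there were 5.05 per 100 nt in the 198 covered nt and 1.68 in the remaining 11205 nt of the protein-coding genes. The product of the base frequencies would give 2.19 and 1.18. Without mt-Nd6, whose minus strand is rich in G and U, the values were 5.00 and 1.65, and the base frequencies would give 1.51 and 1.11. Within genes, the covered stretch and the rest of the gene had 4.23 and 1.81 UAG per 100 nt in mt-Nd1, 6.12 and 1.80 in mt-Co1, and 5.13 and 2.27 in mt-Nd6. In mt-Rnr2 they had 2.17 and 1.95.

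UAGG, in which G follows UAG, was also searched. All 4 regions of both states held UAG and all 4 held UAGG, on the gene's strand, where 93.1% and 59.5% of all mitochondrial windows of the same lengths did. In mt-Rnr2, however, UAGG lay outside the nucleotides that the myoblast libraries shared, which held 0, as did those covered in all 4 libraries. Of the 13 differentiated-only regions 9 (69.2%) held UAG, as did 68.7% of windows of the same lengths, and 2 (15.4%) held UAGG, against 27.8% of windows. A match is a description of letters and not a binding site.

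Nuclear copies of mitochondrial DNA were mapped because reads from them may not align uniquely, and their handling is not given in the sources used here. Segments with a nuclear copy of at least 99% identity in GRCm38 were chrM:6390-11042, chrM:11514-11642 and chrM:15675-16039, in all 5147 nt of the genome. Peaks covered 0 nt of them in either myoblast library and 12 and 11 nt in the differentiated libraries, the 5′ end of the mt-Ts2 peak. Of the 12 genes wholly inside these segments, among them mt-Co2, mt-Co3, mt-Atp6 and mt-Atp8, none had a covered nucleotide, whereas 16 of the other 25 genes did. Segments with a less similar copy did hold peaks, such as chrM:1512-1881 in mt-Rnr2 (97.8% identity), with 14 and 20 peaks in the differentiated libraries. The part of nuclear copies in the bare genes was not tested.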

How the data were processed

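Hnrnpa2b1 eCLIP peak lists of 4 IP libraries were used (2 C2C12, 2 differentiated C2C12, grouped by sample title). Per the study's methods, reads were filtered for repeats, aligned to mm9 with STAR, stripped of PCR duplicates, and given to CLIPper. For each replicate's list the authors deposited a −log10 p of IP against size-matched input, from 5 to 400. The study's own limit for a significant peak is a Bonferroni-corrected −log10 p of 8, used here only as an alternative. Whether the listed values carry that correction is not stated. They also deposited the log2 fold enrichment. These values were used only as description or as filters. The lists have no header, so the columns were identified from values and methods. Read depth is unknown.

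Mitochondrial peaks were assigned by midpoint and strand to the 37 mitochondrial genes of GENCODE release M21, and covered length by every covered nucleotide. Lists were compared by overlap of at least 1 nt on the same strand (checked against bedtools 2.31.1) and states by exact two-sided permutation tests. Shares carry Wilson intervals (95%). Nuclear copies were found with BLAST 2.17.0 at 90% identity or more in GRCm38. The code for assignment and overlap was run on simulated lists of 277 peaks and recovered 100%. Each simulated peak lay inside a single gene, and overlapping peaks were exact copies. The simulation therefore did not test peaks that cross gene ends or overlap in part. Python 3.11.15, numpy 2.4.6, scipy 1.17.1, pandas 2.3.3 and matplotlib 3.10.9 were used.

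Genes with a peak in both replicates of a state were named, as were the best-ranked regions, up to 5 of each kind. Members, lists and rules were chosen with earlier results of these data known. Alternatives were other p, enrichment and width limits, joined peaks, other overlap, assignment and merging rules, and leaving out each replicate. Leaving out segments with nuclear copies or the rRNA genes was added after seeing the data. The input samples were not analysed here on their own.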

Additional observations from a re-analysis of the deposited data

How the results depend on the processing

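The differences in peak number, share of the list, covered length by strand and class, and genes with a peak kept their direction under every alternative tried. For these differences, with class taken as rRNA, tRNA or protein-coding, the exact permutation p was 0.333 wherever it was computed. The exception was rRNA length with the rRNA genes left out. No p was computed with a replicate left out. For the coverage of single genes it was larger in some alternatives, such as mt-Tv and mt-Co1 at −log10 p of at least 8. With each replicate left out in turn, the difference in peak number ran from 88 to 121, in share from 5.57 to 6.57 percentage points, in plus-strand length from 959.5 to 1152.5 nt and in minus-strand length from 96.5 to 322.5 nt. Regions in differentiated cells alone ran from 13 to 23 (23 without differentiated C2C12 replicate B), and regions in myoblasts alone from 0 to 1 (1 without C2C12 replicate A). No paired analysis was possible because no model was fitted and the letters A and B are not stated to mark a shared culture or day.

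Among peaks with log2 fold enrichment of at least 2, the difference in peak number was 10 and in share 1.47 percentage points. Then 5 genes were higher in every differentiated library and 0 in every myoblast library, and 4 regions were in differentiated cells alone and 0 in both states. The differentiated median enrichment was then 2.30. The UAG excess given in this section is covered minus uncovered, per 100 nt, over rRNA, tRNA and protein-coding genes together. In differentiated cells it was 1.12, against 0.495 with all listed peaks. At −log10 p of at least 8, 0 genes were higher in every myoblast library, the mt-Co1 difference turned to 0.194 points, the myoblast median was 1.03, and the UAG excess was 1.67 in myoblasts, against 1.92, and 0.541 in differentiated cells. The share difference was then 9.98 points, and it was 2.10 points, with a difference in peak number of 22, after touching peaks were joined. Joining touching peaks gave medians of 1.25 in myoblasts and 1.05 in differentiated cells, and leaving out peaks under 5 nt gave 1.11 in myoblasts. The differentiated median was above, not below, the myoblast median only with the rRNA genes left out (1.38 against 1.20).

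Replicate overlap was 52.9% in myoblasts and 41.2% in differentiated cells with a reciprocal overlap of 50%, and 23.5% and 2.47% with identical ends. It was 97.9% in differentiated cells within 100 nt. Merging regions up to 100 nt apart left 3 in differentiated cells alone. Counting a peak in at least 1 replicate gave 24 in differentiated cells alone and 1 in myoblasts alone. Of the alternatives added after seeing the data, leaving out the rRNA genes gave a difference in peak number of 23 and in share of 1.01 points, 5 differentiated-only regions, a myoblast overlap of 93.8% and a myoblast UAG excess of 2.23, and leaving out segments with a nuclear copy gave a differentiated UAG excess of 0.545. Leaving out those segments also lowered the mt-Ts2 coverage difference from 68.6 to 14.4 points. The cause of these shifts was not tested. Unknown depth limits every count.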
